A study of Homo sapiens with 20 samples.

Results

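The 10 genes described here encode the feedback phosphatases and Sprouty-type inhibitors of mitogen-activated protein kinase (MAPK) signalling: DUSP1, DUSP4, DUSP5, DUSP6, DUSP8, DUSP10, SPRY2, SPRY4, SPRED1 and SPRED2. They were chosen by symbol, as every probe set of the expression array annotated to 1 of these genes alone, which gave 22 of the 54675 probe sets. The arrays measured mRNA in U2OS, a human osteosarcoma line long kept in culture. The 20 arrays fell into 5 conditions: control cells, cells under hypoxia (oxygen below 0.1%), cells given tunicamycin at 2.5 ug/ml, cells given emetine at 100 ug/ml, each stress for 3 hr, and cells with a hairpin against UPF1, named shRent1 in the labels. All 5 conditions then received 100 ug/ml of DRB, an inhibitor of transcription elongation, and RNA was taken when DRB was added (0 hr) and then 1.5 hr, 3 hr and 4.5 hr later. Hypoxia is a condition of poorly supplied tumour tissue, tunicamycin causes stress of the endoplasmic reticulum, emetine stops ribosomes from elongating, and UPF1 is the central helicase of nonsense-mediated mRNA decay. Each condition and time had 1 array. The labels gave no hairpin control for UPF1 depletion and did not state whether the stress went on during DRB.

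MAPK cascades run from receptors through RAS and a series of kinases to ERK, JNK or p38, which are switched on by phosphorylation. Dual-specificity phosphatases (DUSPs) remove that phosphate: DUSP1 acts in the nucleus on all 3 kinase families, DUSP4 and DUSP5 are nuclear enzymes, DUSP5 being selective for ERK, DUSP6 is the cytoplasmic ERK phosphatase, and DUSP8 and DUSP10 prefer JNK and p38. Sprouty (SPRY) and Sprouty-related EVH1-domain (SPRED) proteins act earlier, between the receptor and RAF, and SPRED1 does so by bringing the RAS inhibitor neurofibromin to the membrane. Many of these genes are themselves switched on by ERK signalling, and several of their mRNAs are short-lived, which makes the pathway limit itself.

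Of the 10 genes, 8 had a probe set whose mean over all arrays lay above the 40th percentile of the array (a signal of 26.0), and these 8 were tested among 14478 genes. All 8 also passed that value when the emetine arrays were set aside. DUSP4 and DUSP6 did not pass with any of their probe sets. Levels are deposited RMA intensities, and each gene tested was read from its brightest probe set. A fitted level is the log2 difference between 2 conditions at the moment of DRB addition, and a fitted slope is the change in log2 per hr after it, both ± SE of the limma fit over all 20 arrays with Benjamini-Hochberg adjustment over all genes tested. A gene was called at an adjusted p under 0.05. With 1 array for each condition and time, the error is the scatter about fitted lines, and loss after DRB was not always linear, so the signals of the 0 hr arrays are given beside the fitted levels.

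The labels were checked first. In UPF1-depleted cells the brighter UPF1 probe set lay at 89.4 to 170 against 352 to 392 in control, and its mean was 29.1% of control. The dimmer UPF1 probe set lay at 58.1 to 85.2 against 104 to 122 in control, with a mean of 60.95% of control. Of 8 mesenchymal markers, 6 passed the signal filter, and COL1A2 and TWIST1 did not. Of 14 annotated markers of other cell types, 7 also passed, and the summed signal of all 14 was 739 to 979 in control, 842 to 1159 in hypoxia, 685 to 888 in tunicamycin, 672 to 825 in emetine and 728 to 883 in UPF1-depleted cells. The 3' end of ACTB exceeded its 5' end by 0.55 (log2, mean of 4 arrays) in control, 0.54 in tunicamycin, 1.24 in UPF1-depleted cells, 2.04 in hypoxia and 2.04 in emetine. The part of this 3' excess, a measure of RNA integrity or of labelling, in the results on emetine and hypoxia was not tested, and a batch of cultures or arrays and the condition cannot be told apart.

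In control cells the feedback transcripts disappeared at very different rates once transcription was blocked. DUSP1 (probe set 201041_s_at) fell from a signal of 1942 at 0 hr to 99.1 at 1.5 hr, and was 78.5 at 3 hr and 98.6 at 4.5 hr. Thus 5.10% of the signal was left at 1.5 hr, and the later arrays were level. SPRY2 (204011_at) gave 126, 26.1, 20.2 and 17.1 at the 4 times, so 20.7% was left at 1.5 hr and 13.6% at 4.5 hr, where the signal lay below the filter value. DUSP5 (209457_at) fell in steps, with signals of 320, 189, 68.7 and 40.4, and 12.6% was left at 4.5 hr. DUSP10 (221563_at) held its signal for the first interval and then declined, at 65.5, 66.0, 40.4 and 32.3. SPRED1 (226837_at) gave 330, 486, 237 and 206, and SPRED2 (212458_at) 560, 629, 428 and 327. Both Sprouty-related transcripts were thus higher at 1.5 hr than at 0 hr and ended at 62.4% and 58.4% of their 0 hr signal. SPRY4 (221489_s_at) and DUSP8 (238594_x_at) did not decline: SPRY4 gave 39.9, 46.8, 41.8 and 49.3, and DUSP8 rose from 164 through 187 and 204 to 227, without a call for either slope. The median of all 14478 genes changed by 0.06 on the log2 scale over the first 1.5 hr, and 5% of genes fell by 0.61 or more. DUSP1 fell by 4.29 and SPRY2 by 2.27 in that interval.

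**Figure D1:**
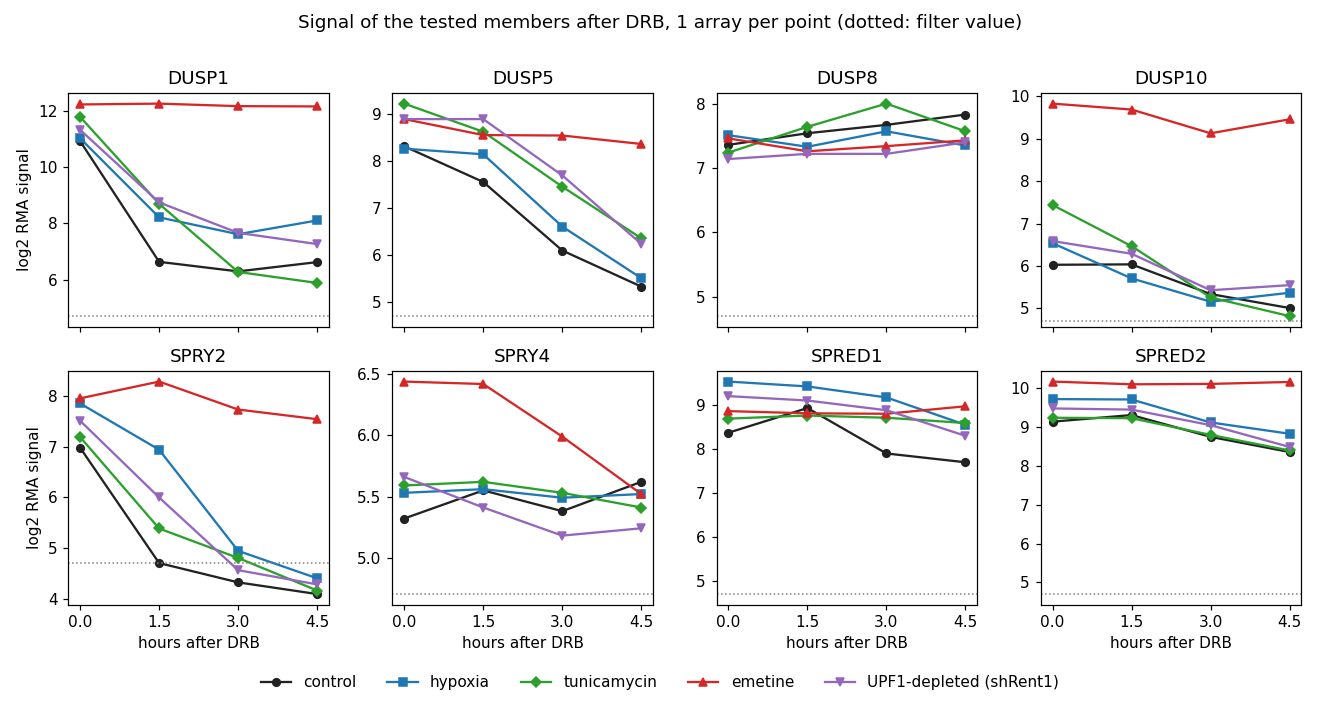
Signal (log2 RMA intensity, vertical axis) of the 8 genes tested against hours after DRB (horizontal axis), 1 array per point and 1 line per condition; the dotted line is the signal filter, and the vertical axes differ between genes. Emetine (red) stays nearly level for DUSP1 and SPRED2 while the other conditions fall, and for SPRY4 it goes from 6.44 to 5.52.

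By the fitted slopes, 6 of the 8 genes fell in control, 5 in hypoxia, 5 in tunicamycin, 7 in UPF1-depleted cells and 1 in emetine. The shares of all genes with a slope called in either direction were 31.7% in control, 29.5% in hypoxia, 22.4% in tunicamycin, 27.5% in UPF1-depleted cells and 0.394% in emetine. The slopes in control were -0.88 ± 0.27 log2 per hr for DUSP1 (adjusted p = 0.0255), -0.69 ± 0.09 for DUSP5 (4.46e-05), -0.60 ± 0.13 for SPRY2 (0.00316), -0.25 ± 0.07 for DUSP10 (0.0193), -0.21 ± 0.06 for SPRED1 (0.0262) and -0.19 ± 0.05 for SPRED2 (0.00821). The DUSP1 slope rested on its 0 hr array: without it the estimate was -0.0024 (adjusted p = 0.997), with trend and robust shrinkage the adjusted p was 0.0582, and with the median of probe sets the estimate was -0.010 (0.941). In the fit without the 0 hr array of control, SPRY2 was also not called (-0.20, 0.463), nor was DUSP10 (-0.34, 0.0777). Without the control array at 4.5 hr, the calls for DUSP10 (adjusted p = 0.195), SPRED1 (0.297) and SPRED2 (0.248) were lost, so that the DUSP5 slope was the only one of the 6 called whichever array was left out. The slopes of DUSP5 in the conditions other than emetine were close to that in control, at -0.66 ± 0.09 in hypoxia, -0.65 ± 0.09 in tunicamycin and -0.61 ± 0.09 in UPF1-depleted cells; of these, the last was not called without the UPF1-depleted array at 4.5 hr (-0.40, adjusted p = 0.065).

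In the other conditions most called slopes also needed the outer arrays of the same condition. In hypoxia, DUSP5 and SPRY2 (-0.82 ± 0.13) were called in all 20 fits without 1 array. DUSP10 was lost without the hypoxia array at 0 hr (-0.11, adjusted p = 0.584), SPRED1 without that at 0 hr (0.0989) or 4.5 hr (0.461), and SPRED2 without that at 4.5 hr (0.119). In tunicamycin, DUSP5 and DUSP10 (-0.60 ± 0.07) were called in all 20 fits, while DUSP1 (-1.34 ± 0.27), SPRY2 and SPRED2 were lost without the tunicamycin array at 0 hr (adjusted p = 0.324, 0.348 and 0.0565) and SPRED2 also without that at 4.5 hr (0.224). In UPF1-depleted cells, leaving out their 0 hr array ended the calls for DUSP1 (adjusted p = 0.541), DUSP10 (0.252), SPRY2 (0.104), SPRED1 (0.137) and SPRY4 (0.583), and leaving out their 4.5 hr array ended those for DUSP1 (0.0999), SPRED1 (0.542), SPRED2 (0.247) and SPRY4 (0.0754). With the median of probe sets, the slopes of DUSP10 and SPRED1 in hypoxia (adjusted p = 0.0846 and 0.643), of SPRED1 in control (0.122) and of DUSP1 and SPRED1 in UPF1-depleted cells (0.835 and 0.217) were not called. SPRY4 in UPF1-depleted cells fell by 0.10 ± 0.03 log2 per hr, called in 11 of the 20 fits.

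For DUSP1, DUSP10, SPRY2, SPRY4 and SPRED2 the highest fitted level against control was that of emetine. For DUSP5 it was that of tunicamycin, and for SPRED1 and DUSP8 that of hypoxia. After 3 hr of translation block, DUSP10 stood about 12-fold above control, DUSP1, SPRY2, SPRY4 and SPRED2 were also higher, and after DRB the transcripts of DUSP1, DUSP5 and SPRED2 fell more slowly than in control. In the levels, 5 of the 8 genes were called against control, all of them higher, where 38.7% of all genes were called (18.9% higher and 19.8% lower). The median difference of the 8 was 1.01 (log2), against -0.08 over all genes tested. In the slopes, 4 of 8 were called, 3 of them less negative than in control and 1 more negative, where 14.4% of all genes were called.

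DUSP10, the JNK and p38 phosphatase, had the highest fitted difference among the 8 genes. Its emetine signals were 909, 826, 560 and 705 in order of time, all above the highest array of the other 4 conditions (173). The fitted level was 3.60 ± 0.19 above control (12.2-fold, adjusted p = 1.54e-07), and it was called in 29 of 29 alternative settings, which included leaving out each array in turn. The arrays at 0 hr differed by 3.79 (log2). A second DUSP10 probe set (215501_s_at) read 163, 156, 135 and 229 in emetine, against 22.5 to 53.6 in all other arrays, and gave 1.97 ± 0.19 when every probe set was treated as a feature of its own (adjusted p = 1.38e-05; 35.1% of probe sets called). The slope of the brighter probe set did not pass the test against control (0.14 ± 0.07, adjusted p = 0.216), while that of the second did (0.24 ± 0.07, adjusted p = 0.0434; 9.87% of probe sets called).

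DUSP1, the nuclear phosphatase with the broadest choice of kinases, was bright in emetine and did not decline. Its signals there were 4784, 4882, 4576 and 4558, again above every array of the other conditions (58.8 to 3519). At 0 hr the emetine array was 2.46-fold above control, and at 4.5 hr it retained 95.3% of its signal where control retained 5.08%. The fitted level was 2.64 ± 0.63 (adjusted p = 0.0055), above the measured 0 hr difference of 1.30 on the log2 scale. The fit takes the difference from control as a straight line in time, while the measured differences at the 4 times were 1.30, 5.62, 5.87 and 5.53. The level call was lost without the time factor (adjusted p = 0.0747) and with the median over the gene's probe sets, which turned the sign (-0.18, 0.604). The slope was 0.86 ± 0.23 log2 per hr less negative than in control (adjusted p = 0.0212). The slope call was lost without the control array at 0 hr (0.32, adjusted p = 0.519) or the emetine array at 0 hr (0.28, 0.554). It was also lost with trend and robust shrinkage (adjusted p = 0.0739), with the median of probe sets (0.092, 0.563) and without the time factor (0.194). The fitted level without the 0 hr array of control or of emetine was 4.52 and 4.67, and 1.997 when the control array at 1.5 hr was left out. Both other DUSP1 probe sets were dim: 226578_s_at lay lower in emetine (-0.43 ± 0.16, adjusted p = 0.0483) and 201044_x_at gave no call against control.

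DUSP5, the nuclear ERK phosphatase, passed the test in its slope and not in its level. Emetine signals were 477, 378, 375 and 330, so 69.3% was left at 4.5 hr against 12.6% in control. The slope was 0.59 ± 0.10 log2 per hr less negative (adjusted p = 0.0011) and was called in 29 of 29 alternatives. The fitted level difference was 0.44 ± 0.27 (adjusted p = 0.225), and at 0 hr the emetine signal lay between those of control (320) and tunicamycin (599).

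Among the receptor-proximal inhibitors, SPRY2 gave 248, 311, 213 and 187 in emetine, and each array lay above all other conditions at the same time. Its level was 1.76 ± 0.43 above control (adjusted p = 0.00624), called in 28 of 28 alternatives. SPRY2 did not pass the filter at the 60th percentile, so that setting is not among them. The estimate was 2.93 when the 0 hr array of control was left out and 2.89 when that of emetine was. The measured difference was 0.97 at 0 hr and 3.57 at 1.5 hr. The slope difference of 0.48 ± 0.15 missed the threshold (adjusted p = 0.055).

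SPRY4 behaved the other way after DRB. Its emetine signals were 86.7, 85.5, 63.5 and 45.9, the first 3 above every array of the other conditions (36.2 to 50.5) and the last within their range. The level was 1.21 ± 0.13 above control (adjusted p = 1.5e-05, called in 27 of 27 alternatives). SPRY4 could not be tested with the filter at the 60th percentile or without _s, _x and _a probe sets. The slope was -0.26 ± 0.05 log2 per hr relative to control (adjusted p = 0.00157), a call that was lost without the emetine array at 4.5 hr (-0.18, 0.0825). Within emetine it was the only one of the 8 genes with a called slope (-0.21 ± 0.03, adjusted p = 0.0167), which was lost without the emetine array at 0 hr (0.0761) or at 4.5 hr (0.556).

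SPRED2 was steady in emetine at 1144, 1088, 1097 and 1135, all above the other 16 arrays (327 to 839). Its level was 0.81 ± 0.14 higher (adjusted p = 0.000487) and its slope 0.19 ± 0.05 less negative (0.018). The level was not called without the control array at 0 hr (0.59, adjusted p = 0.0699) or the emetine array at 0 hr (0.41, 0.0955), nor the slope without the control (0.201) or emetine (0.353) array at 4.5 hr, after quantile normalization (0.0515) or without the time factor (0.0903). The other SPRED2 probe sets, 212466_at and 214026_s_at, did not pass the filter. Their mean differences from control in emetine over the 4 times were -0.10 and -0.08 (log2). SPRED1 read 461, 447, 441 and 498, and 108% of its 0 hr signal was left at 4.5 hr. Its array at 0 hr lay 0.48 above that of control (log2), the fitted level was 0.12 ± 0.22 and not called (adjusted p = 0.696), and its slope difference of 0.23 ± 0.08 was not called (0.0824).

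**Figure D2:**
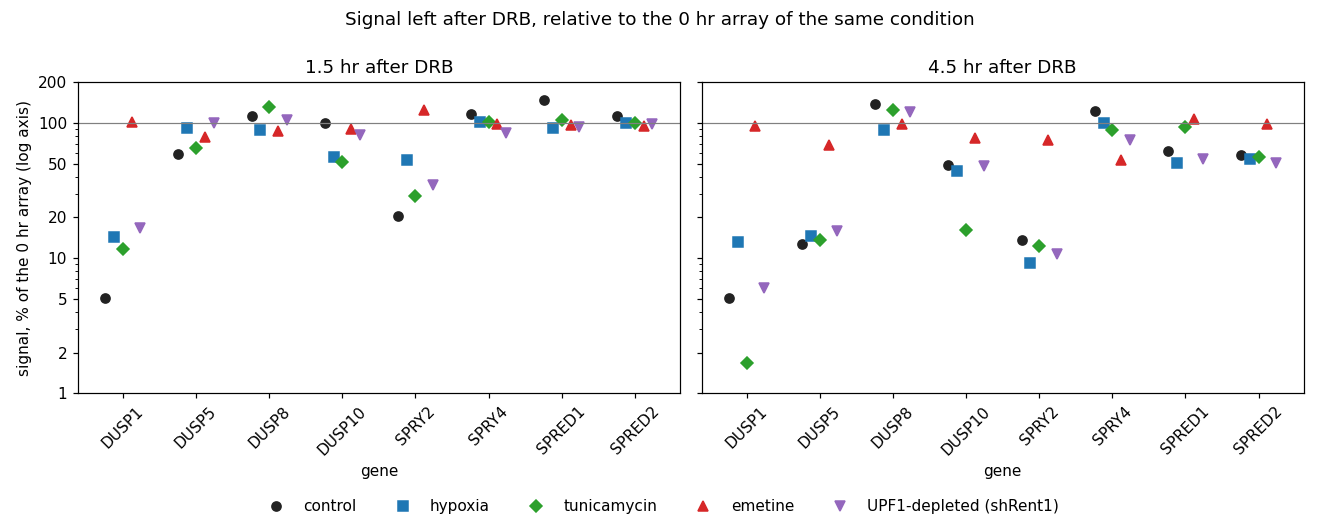
Signal left at 1.5 hr (left) and 4.5 hr (right) after DRB as a percentage of the 0 hr array of the same condition (vertical axis, logarithmic), for each gene tested (horizontal axis), 1 point per condition. At 4.5 hr the emetine points of DUSP1 (95.3%), DUSP5 (69.3%) and SPRY2 (75.4%) stand far above the other conditions, and for SPRY4 emetine is lowest (52.9%).

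The JNK and p38 phosphatase DUSP8 gave 2 different answers. Its brighter probe set (238594_x_at), whose suffix marks probes that may bind other transcripts, read 176, 153, 162 and 172 in emetine and was not called in any comparison (emetine level 0.0022 ± 0.18, adjusted p = 0.994). The other probe set (206374_at) read 369, 215, 191 and 202 in emetine and 117, 54.9, 59.1 and 65.8 in control. All 4 emetine arrays lay above the other 16 (48.8 to 120), and the level was 1.79 ± 0.25 higher as a feature of its own (adjusted p = 0.000186). Which of the probe sets follows DUSP8 mRNA was not tested.

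**Figure D3:**
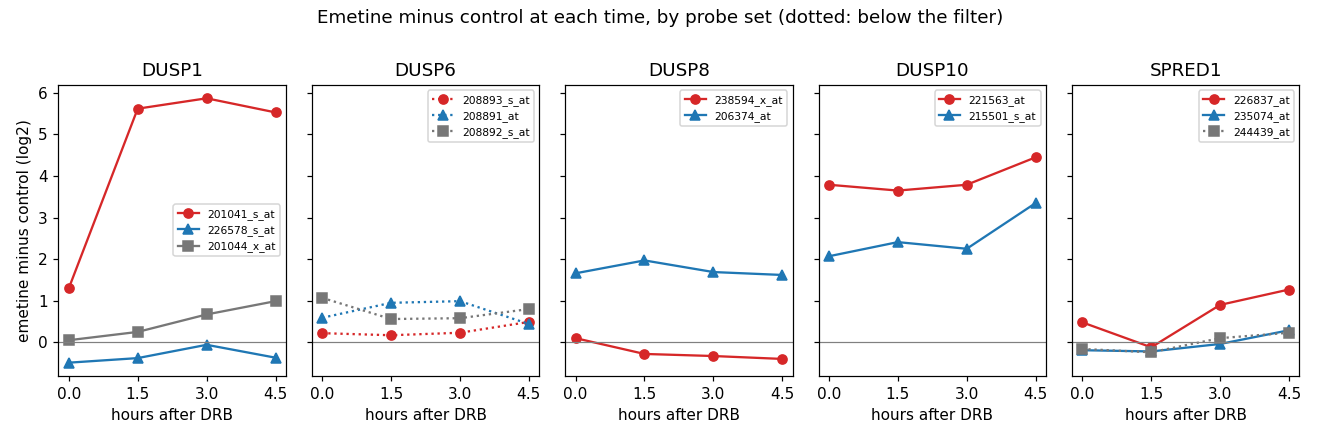
Emetine minus control (log2 difference of single arrays, vertical axis) at each time after DRB (horizontal axis) for every probe set of DUSP1, DUSP6, DUSP8, DUSP10 and SPRED1; dotted lines are probe sets below the signal filter. Both DUSP10 probe sets lie between 2 and 5, those of DUSP1, DUSP8 and SPRED1 disagree with each other, and the dim DUSP6 probe sets lie above 0.

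The ERK phosphatases DUSP4 and DUSP6 were near the floor of the array. The 3 DUSP4 probe sets ranged from 8.94 to 19.9 over all arrays. The DUSP6 probe set 208892_s_at read 13.0, 14.4, 12.4 and 14.0 in control and 27.3, 21.2, 18.5 and 24.4 in emetine, where each array lay above the other 16. The DUSP6 probe set 208893_s_at likewise lay at 24.5 to 27.9 in emetine and at 16.6 to 24.2 elsewhere. Without the filter, when each gene was again read from its brightest probe set, neither gene was called in any comparison.

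The promoters of the members were searched because cyclic-AMP response elements, sites bound by CREB and ATF factors, are known from the DUSP1 promoter. RefSeq promoter windows (GRCh38.p14) were at hand for 8 of the 10 genes, without DUSP4 and DUSP5, and 250 bases before each start were searched on both strands for TGACGTCA, for its core TGACG, which the longer motif contains, and for the ETS-type core GGAAG. The stretches that hold TGACG are printed 5' to 3' with that core or its reverse complement in capitals, the whole of TGACGTCA included.
DUSP1 promoter, chr5:172771272-172771397, minus strand: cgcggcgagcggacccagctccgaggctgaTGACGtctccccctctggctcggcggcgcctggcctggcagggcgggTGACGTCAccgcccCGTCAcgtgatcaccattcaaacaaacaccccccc
DUSP8 promoter, chr11:1572308-1572419, minus strand: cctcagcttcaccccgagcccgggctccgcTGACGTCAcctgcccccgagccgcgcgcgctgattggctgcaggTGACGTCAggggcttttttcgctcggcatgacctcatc
SPRY2 promoter, chr13:80341282-80341346, minus strand: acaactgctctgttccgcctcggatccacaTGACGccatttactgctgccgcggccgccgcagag
SPRY4 promoter, chr5:142324281-142324345, minus strand: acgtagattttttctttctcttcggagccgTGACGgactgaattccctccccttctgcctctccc
The full TGACGTCA was present in DUSP1 and DUSP8, against 1.65% of all 35116 windows. DUSP1 held it 125 bases before the start, and DUSP8 held it at 118 and 74 bases. The core TGACG was present in 4 of the 8 genes (21.2% of all windows) and GGAAG in 6 (65.1%). A gene was counted if any of its windows held the motif, and DUSP10, SPRY2 and SPRED2 had more than 1 window. The shares are of single windows, so the counts of genes and the shares are not like measures. DUSP10, which had the largest level difference in emetine, held neither TGACG nor TGACGTCA in its 2 windows. These matches describe letters and not binding.

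In hypoxia the called levels were those of the SPRED genes, while the largest fitted level, that of SPRY2, was not called. SPRED1 and SPRED2 were called higher than control, 2 of the 8 genes, where 7.65% of all genes were called, and the median of the 8 was 0.37 against -0.02 over all genes. SPRED1 signals in hypoxia were 733, 679, 570 and 373, each above control at the same time. The level was 0.95 ± 0.22 higher (1.94-fold, adjusted p = 0.0241). It was not called without the control array at 0 hr (0.36, adjusted p = 0.677), the hypoxia array at 0 hr (0.97, 0.299) or the hypoxia array at 4.5 hr (0.89, 0.0569). A second SPRED1 probe set (235074_at) did not share the difference. It was the gene's middle probe set in signal, so the median over the gene's probe sets was its reading (0.04, adjusted p = 0.876). SPRED2 signals were 839, 834, 554 and 451, each 0.37 to 0.58 above control (log2). Its level was 0.52 ± 0.14 higher (adjusted p = 0.0384), called in 17 of 28 alternatives. Among the 20 fits without 1 array it was called in 11, and the call was lost without 2 control, 3 hypoxia, 1 tunicamycin, 1 emetine or 2 UPF1-depleted arrays, each taken singly, as well as without the filter (adjusted p = 0.0556) or the time factor (0.137). The estimate was lowest without the control array at 0 hr (0.29, adjusted p = 0.631).

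SPRY2 had a larger but less certain difference in hypoxia, with signals of 231, 123, 30.8 and 21.2. It lay above control at all 4 times, by 0.87 at 0 hr and 2.24 at 1.5 hr, and the fitted level of 1.50 ± 0.43 missed the threshold (adjusted p = 0.0532; called in 6 of 28 alternatives). The estimate was 2.67 when the control array at 0 hr was left out and 2.18 when the hypoxia array at 0 hr was. DUSP1 in hypoxia started near control (2074) but read 296, 195 and 275 later, 1.31 to 1.58 above control on the log2 scale. Its fitted level was 0.53 ± 0.63 (adjusted p = 0.68) and its slope difference 0.26 ± 0.23 (0.74). DUSP5 gave 310, 285, 97.7 and 45.5, with a level of 0.22 ± 0.27 (adjusted p = 0.694). No slope of the 8 genes was called against control in hypoxia by limma, and none had an unadjusted p under 0.05, where 0.0345% of all genes were called.

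Tunicamycin, a blocker of N-glycosylation, gave 1 called gene, DUSP10, where 2.89% of all genes were called. The median level difference of the 8 was 0.36 against -0.03 over all genes. The brighter DUSP10 probe set (221563_at) gave 173, 88.9, 38.3 and 28.2, above control at 0 and 1.5 hr and below it at 3 and 4.5 hr. The level was 1.19 ± 0.19 higher (2.27-fold, adjusted p = 0.00606) and the slope -0.35 ± 0.07 log2 per hr relative to control (0.0101), the 1 slope called among the 8 genes (5.24% of all genes). The level call was lost without the control (0.63, adjusted p = 0.342) or tunicamycin (1.11, 0.156) array at 0 hr, and so was the slope call (-0.20, 0.277, and -0.33, 0.171), which was also lost without the tunicamycin array at 4.5 hr (-0.37, 0.0901). Without the time factor neither was called (0.0611 for the level and 0.0905 for the slope). With the median of probe sets the slope was not called (-0.16, 0.123). The second DUSP10 probe set (215501_s_at) lay above control at all 4 times, by 0.26 to 0.75 (log2). As a feature of its own it was called neither in level (0.50 ± 0.19, adjusted p = 0.253) nor in slope (0.02 ± 0.07, 0.936).

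The signals of DUSP1 and DUSP5 in tunicamycin were also above control at 0 hr, without a call. DUSP1 gave 3519, 412, 77.3 and 58.8, so that 1.67% was left at 4.5 hr, and its level of 1.57 ± 0.63 was not called (adjusted p = 0.222). That estimate was 3.45 when the control array at 0 hr was left out and 0.93 when the one at 1.5 hr was. Its probe set 201044_x_at read 182 in tunicamycin at 0 hr and 80.2 in control, a fitted level of 0.98 ± 0.22 (adjusted p = 0.0472; 1.59% of probe sets called). DUSP5 gave 599, 395, 176 and 82.3, 0.91 to 1.35 above control at all 4 times (log2), and its level of 0.99 ± 0.27 missed the threshold (adjusted p = 0.079; called in 4 of 29 alternatives). SPRY2 signals were 146, 41.8, 28.1 and 18.0, and those of SPRED2, at 600, 597, 442 and 336, lay within 0.10 of control. SPRED1 was flat in tunicamycin, at 410, 432, 416 and 382, where control lost signal after 1.5 hr, but the slope difference of 0.18 ± 0.08 was not called (adjusted p = 0.267).

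UPF1 depletion gave 1 called level, that of DUSP5, where 13.7% of all genes were called, and the median of the 8 genes was 0.50 against 0.01 over all genes. DUSP5 signals were 479, 477, 209 and 75.7, above control at all 4 times. The level was 0.92 ± 0.27 higher (1.89-fold, adjusted p = 0.043), and it was called in only 11 of 29 alternatives and in 5 of the 20 fits without 1 array, those without hypoxia at 0 or 1.5 hr or without emetine at 0, 1.5 or 4.5 hr. Its estimate was 1.58 without the UPF1-depleted array at 0 hr (adjusted p = 0.0531) and 0.74 without that at 4.5 hr (0.0921). The call was also lost without the filter (adjusted p = 0.052), after quantile normalization (0.0868) and without the time factor (0.113). DUSP1 in these cells gave 2561, 429, 202 and 154, above control at each time, with a level of 1.13 ± 0.63 (adjusted p = 0.261). SPRY2 gave 183, 63.9, 23.7 and 19.5, and SPRED1 582, 544, 468 and 314 with a level of 0.62 ± 0.22 (adjusted p = 0.0888). The SPRED1 estimate was 0.021 when the control array at 0 hr was left out, and 0.90 and called (adjusted p = 0.00334) when the one at 1.5 hr was. DUSP10 signals were 96.6, 78.3, 43.1 and 46.8. None of the 8 slopes was called against control by limma (1, that of SPRY4, had an unadjusted p under 0.05), where 0.0414% of all genes were called.

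**Figure D4:**
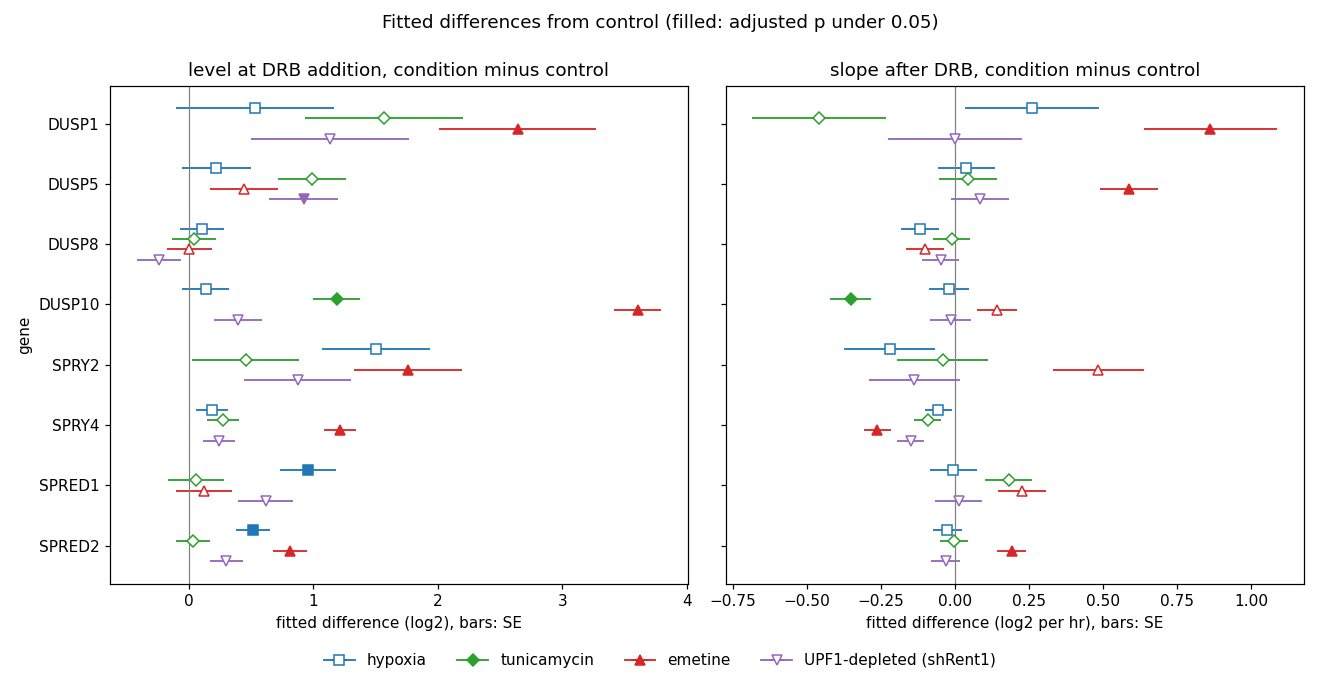
Fitted level differences at DRB addition (left, log2) and slope differences after DRB (right, log2 per hr) of each condition from control for the 8 genes tested (vertical axis); bars are SE from the limma fit, and filled symbols have an adjusted p under 0.05. DUSP10 in emetine (3.60) lies farthest from 0 among the levels, and SPRY4 in emetine (-0.26) and DUSP10 in tunicamycin (-0.35) are the called slopes below 0.

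The conditions were also compared with each other. Emetine exceeded hypoxia in 3 genes and was lower in 1, where 33% of all genes were called: DUSP10 by 3.47 ± 0.19 (log2, adjusted p = 1.83e-07), SPRY4 by 1.03 ± 0.13 (6.5e-05) and DUSP1 by 2.11 ± 0.63 (0.0219), while SPRED1 was lower by -0.83 ± 0.22 (0.0127). The DUSP1 call was lost without the hypoxia array at 0 hr (2.71, adjusted p = 0.103) or 1.5 hr (1.93, 0.0617) or the emetine array at 1.5 hr (1.54, 0.0745), and the estimate was 4.13 without the emetine array at 0 hr. It was also lost with trend and robust shrinkage (0.0667), the median of probe sets (0.12, 0.736) and no time factor (0.165). That of SPRED1 was lost without the hypoxia array at 0 hr (-0.85, adjusted p = 0.157). Emetine exceeded tunicamycin in 4 genes (31.8% of all genes called): DUSP10 by 2.42 ± 0.19 (2.65e-06), SPRY4 by 0.94 ± 0.13 (0.000156), SPRED2 by 0.78 ± 0.14 (0.000906) and SPRY2 by 1.31 ± 0.43 (0.0356). The SPRED2 call was lost without the emetine array at 0 hr (0.37, adjusted p = 0.148). The SPRY2 call was lost without any of 3 tunicamycin arrays or 2 emetine arrays, with adjusted p from 0.0582 to 0.119, and its estimate was 2.44 without the emetine array at 0 hr. It was also lost with trend and robust shrinkage (0.0676) and without the time factor (0.0721).

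Hypoxia and tunicamycin were called as different from each other in the SPRED genes and in DUSP10. Hypoxia was above tunicamycin for SPRED1 (0.90 ± 0.22, adjusted p = 0.0205) and SPRED2 (0.48 ± 0.14, 0.0363) and below it for DUSP10 (-1.05 ± 0.19, 0.00389), 3 of 8 genes where 13.3% of all genes were called. Among the 20 fits without 1 array, the DUSP10 call was lost in the fit without the tunicamycin array at 0 hr (-0.97, adjusted p = 0.109). The SPRED1 call was lost without the hypoxia array at 0 hr (adjusted p = 0.245) or 4.5 hr (0.0507) or the tunicamycin array at 0 hr (0.126) or 1.5 hr (0.0688), and the SPRED2 call was lost without the hypoxia or tunicamycin array at 0, 1.5 or 4.5 hr or the emetine array at 3 hr. The SPRED1 call was also lost with the median of probe sets (0.21, adjusted p = 0.268), and that of SPRED2 without the filter (0.052) or the time factor (0.131). These comparisons share arrays with those against control.

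The genes whose mean-centred profile lay closest to each member over the 20 arrays were found by the root mean square difference (log2). For DUSP1 they were GADD45B (0.63), a stress-induced activator of p38 and JNK signalling, and NFKBIA (0.67), the inhibitor of NF-kappaB, and for SPRY2 they were PPP1R10 (0.40) and ZNF281 (0.43). DUSP10 lay closest to HELQ (0.37) and to the immediate early receptor NR4A2 (0.38), and DUSP5 to FADD (0.38) and KLHL21 (0.40). SPRED1 lay closest to CCNE2 (0.21) and SH3RF1 (0.25), and SPRED2 to KIF11 (0.14) and ZBTB4 (0.15). DUSP8 and SPRY4, which varied least, lay closest to DEFB118 (0.09) and CABLES1 (0.09), and to PLEKHG2 (0.18) and ZNF688 (0.18). The points share arrays and normalization, and the closeness is a description of these 20 arrays.

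The rest of the pathway gives the setting for the emetine result. The counts of called genes stand against 38.7% of all genes called in emetine, and the counts for the receptor inhibitors, the receptor-to-ERK genes and the JNK and p38 genes lie near that share. Of 12 other dual-specificity phosphatases tested, 4 were higher and 3 lower in emetine at DRB addition. DUSP2, a nuclear phosphatase of immune cells, read 4363, 3402, 3634 and 2999 in emetine and 259, 62.5, 59.4 and 67.6 in control, a level of 4.66 ± 0.32 (adjusted p = 7.02e-07), and DUSP16 was higher by 1.55 ± 0.15 (8.05e-06). Of 8 other Sprouty-family and receptor feedback inhibitors, 1 was higher, RASAL2 (0.93 ± 0.12), and 2 were lower, IL17RD (-1.995 ± 0.22) among them. Among 18 ERK-responsive transcripts 7 were higher and 7 lower, with FOS (7.74 ± 0.49) and EGR1 (5.43 ± 0.51) leading. Of 29 genes from the receptors to ERK, 4 were higher and 7 lower, with SOS1 (1.31 ± 0.13) and RASA2 (1.12 ± 0.12) the clearest, and of 24 genes of the JNK and p38 pathways 6 were higher and 3 lower, MAP3K2 (1.29 ± 0.09) and RPS6KA5 (1.43 ± 0.16) leading. Median level differences of these 5 lists in emetine were 0.19, -0.10, 0.17, -0.19 and 0.10, against 1.01 for the 8 genes and -0.08 over all genes tested.

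Outside emetine, fewer genes of each list were called, and the shares of all genes called were 7.65% in hypoxia, 2.89% in tunicamycin and 13.7% in UPF1-depleted cells. In hypoxia, the called genes of the 5 lists were all higher: DUSP9 (0.81 ± 0.14), the receptor inhibitor ERRFI1 (1.08 ± 0.19), the EGF receptor ligand EREG (1.47 ± 0.20), PDGFRA (1.94 ± 0.22), MAP2K1 (0.58 ± 0.13), MAP3K2 (0.67 ± 0.09) and TAB2 (0.48 ± 0.10). In tunicamycin, ERRFI1 was higher by 1.17 ± 0.19, the ERK-responsive ETV5 by 1.30 ± 0.12 and PHLDA1 by 2.54 ± 0.35, 3 of 18 ERK-responsive transcripts being called higher, and DUSP7, an ERK phosphatase, was lower (-0.65 ± 0.15). In UPF1-depleted cells 2 of 18 ERK-responsive transcripts were higher, ETV5 (1.16 ± 0.12) and EREG (0.83 ± 0.20), and so were 2 of 12 other phosphatases, DUSP12 (0.67 ± 0.11) and DUSP3 (0.55 ± 0.10). Of the 29 genes from the receptors to ERK, 2 were higher and 4 lower in these cells, with RASA2 (0.62 ± 0.12) and FGFR2 (-0.74 ± 0.17) the clearest, and 4 of the 24 JNK and p38 genes were higher. After DRB, ERRFI1 fell more slowly than in control in emetine (0.73 ± 0.07 log2 per hr) and in tunicamycin (0.45 ± 0.07), and of the 12 other phosphatases 4 had a less negative slope in emetine and 3 in tunicamycin, DUSP11 (0.35 ± 0.05 and 0.38 ± 0.05) and DUSP14 (0.33 ± 0.05 and 0.26 ± 0.05) in both. Slopes of 14.4% of all genes were called against control in emetine and of 5.24% in tunicamycin. No slope of the 5 lists was called against control in hypoxia or UPF1-depleted cells.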

How the data were processed

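Total RNA of U2OS cells was amplified with a 3' in vitro transcription kit and hybridized to 20 Affymetrix arrays, as the labels' protocols say. In the deposited table, the values are 1 linear intensity per probe set and array, which the authors made with RMA, per the submitters' processing notes, in a version not given in the sources used here. RMA normalizes between arrays, so a change shared by most transcripts is removed and every value is relative to the array. It gives no detection call. Precision is limited by the number of arrays.

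Deposited intensities were turned into log2 values. Gene names came from the platform annotation (41097 probe sets with 1 gene symbol, 1801 with several, which were not named, and 11777 with none), each gene was read from its probe set with the highest mean, and genes above the 40th percentile (log2 4.70) were tested, 14478 in all. The model was fitted with limma 3.58.1 in R 4.3.3 (lmFit, eBayes) and held a factor for time, a term for condition and a slope in time for each condition, 12 coefficients in all with 8 residual degrees of freedom. Slopes within a condition came from a line per condition (10 coefficients, 10 residual degrees of freedom). Adjustment was over all genes tested, and p-values measure the scatter of single arrays, which the labels do not name as separate cultures. The script was tested on simulated data.

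Members and pathway lists were chosen with earlier results of these data known. Named genes were all members, the 2 called genes with the largest moderated statistic per list and comparison, the 2 genes closest in profile to each member, and UPF1. Genes of the lists without a matched probe set were not analysed here. Alternatives were the filter, the probe set rule, the normalization, an offset of 16, the time term and each array left out; treating every probe set as a feature was added after the data were seen.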

Additional observations from a re-analysis of the deposited data

Results flagged for a closer look

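DUSP1 in control was flagged because its 0 hr array, at a signal of 1942, lay far from the other 3 arrays of the group, the gap being 0.927 of the whole range. This was 1 flag among 40 groups examined, about 1 group in 20 is flagged by chance, and the arrays of a group differ in time after DRB.

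The slopes of 5 genes differed between conditions by the limma term for the difference. In emetine, the slope minus that of control was 0.86 log2 per hr for DUSP1, 0.59 for DUSP5, 0.19 for SPRED2 and -0.26 for SPRY4. In tunicamycin it was -0.35 for DUSP10.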

How the results depend on the processing

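For the 63 values of single members with an unadjusted p under 0.05 in the limma fit, 1787 alternative values were computed. Of these, 1613 kept direction and, where tested, side of the threshold. Measured 0 hr differences have no test and were counted there if they lay within the error of the fitted level. The call was lost in 132 and gained in 26, and 5 reversed. The other 11 were measured 0 hr differences that lay beyond the error of the fitted level. Reversed were, with the median over a gene's probe sets, DUSP1 in emetine (level -0.18), DUSP1 within hypoxia (slope 0.068) and DUSP8 within control (slope -0.029), DUSP8 within control also without _s, _x and _a probe sets (-0.16), and SPRED2 in emetine minus hypoxia without the emetine array at 0 hr (-0.11, the lowest of its fits without 1 array, the highest being 0.44). The cause was not tested.

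Counts of called members, leaving out 1 array at a time, ranged as follows. For levels: hypoxia 0 to 3, tunicamycin 0 to 2, emetine 4 to 6, UPF1-depleted cells 0 to 1, emetine minus hypoxia 2 to 4, emetine minus tunicamycin 3 to 5, hypoxia minus tunicamycin 0 to 4. For slopes against control: hypoxia 0 to 0, tunicamycin 0 to 1, emetine 3 to 6. For slopes within a condition: control 3 to 7, hypoxia 3 to 6, tunicamycin 2 to 5, emetine 0 to 1, UPF1-depleted cells 2 to 7.

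Without the filter the level counts were 1 in hypoxia and 0 in UPF1-depleted cells. With the stricter filter, which tests fewer members, they were 3 in emetine, 2 in emetine minus tunicamycin and 0 slopes within emetine. With the median of probe sets they were 1 level in hypoxia and 0 slopes in tunicamycin against control. Within control, hypoxia and UPF1-depleted cells that setting gave 3, 2 and 4 slopes. Its 1 level in hypoxia was that of SPRY2 (adjusted p = 0.0457). SPRED1 was not called there (0.876), and SPRED2 did not pass the filter. Without the time factor the counts were 1 level in hypoxia, 0 in tunicamycin, 0 in UPF1-depleted cells, 0 slopes in tunicamycin and 2 in emetine. Without _s, _x and _a probe sets, 2 slopes were called in emetine against control and 0 within emetine. DUSP1 and SPRY4 have no other probe sets and were not tested in that setting. Trend and robust shrinkage and the offset of 16 each gave 2 levels in tunicamycin, and quantile normalization gave 0 levels in UPF1-depleted cells. Signals near the floor (DUSP4, DUSP6, SPRY2 after DRB) limit what can be told of their size of change.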
